A study of Drosophila melanogaster with 6 samples.

Results

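Neuropeptide precursor genes encode the secreted proteins from which neurons and endocrine cells cut small signaling peptides. The precursors were chosen by their FlyBase symbols from a list of 32 genes, with the insulin-like peptides left out, and 31 of them were found among the 17492 genes of the count table. *Nplp2* was not analysed here. Polyadenylated RNA was sequenced from the heads of flies of strain 5905, a *w1118* line that carries a mutation of the *white* eye color gene at both ages. The groups were 3 samples at 3d and 3 samples at 30d after eclosion. The study's culture methods describe male flies aged on standard food, and neither the sex of the flies behind these RNA samples nor the number of heads in each is given separately in the sources used here. The labels do not say whether the samples of an age came from separate cultures. The p-values therefore measure only the spread between these samples, which may be technical.

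A neuropeptide is made as part of a longer precursor that enters the secretory pathway, is cut at pairs of basic residues, is often amidated at its end, and is packed into dense-core vesicles. After release it acts mostly on G protein-coupled receptors, in the brain as a modulator or through the hemolymph as a hormone. In the fly head many of these genes are expressed in small, fixed groups of neurons, so that a whole-head level depends on few cells. Fewer such cells and less RNA per cell cannot be told apart in bulk samples.

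Library totals over genes lay between 3176380 and 3741860 counts in the 6 samples. Levels below are CPM, which scales each gene's counts by the library total after TMM normalization. Differences are the log2 fold change of 30d over 3d with its standard error (SE). Genes with too few counts were left out, the ages were compared over the other 8773 genes with the quasi-likelihood test of edgeR, and a gene was called at an adjusted p-value under 0.05. Of the photoreceptor markers, *ninaE*, the main rhodopsin of the eye, stood between 21171 and 34683 CPM, as is usual for heads. The markers of the thoracic and abdominal nerve cord, *Antp*, *Ubx*, *abd-A* and *Abd-B*, together reached 5.91 CPM at most. Exons of *CG46458* overlap 50.1% of the exon bases of *Antp*, and reads lying wholly in the overlap were not counted. Permuting 3 samples against 3 in full (exact test, two-sided) cannot give a p-value below 0.1 for one gene, so the calls rest on the spread that edgeR shares between genes.

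Of the 26 precursor genes tested, 12 rose and 4 fell from 3d to 30d, against a background of 14.4% of all genes tested that were called higher and 16.1% called lower. In all, 61.5% of the precursor genes were called, compared with 30.4% of all genes. *Crz*, *Hug* and *NPF* more than doubled, and *Dsk*, *FMRFa*, *Pdf*, *Mip*, *Ms*, *AstC*, *Dh31*, *Dh44* and *sNPF* rose by less. *Nplp3*, *Proc*, *Tk* and *Nplp1* fell. The ages did not overlap for 11 of the 12 genes that rose and for the 4 that fell, where 22.3% of all genes tested had every 30d sample above every 3d sample and 22.5% every 30d sample below, 44.8% in either direction. The median log2 fold change was 0.12 over the precursor genes and 0.02 over all genes tested. The first of these medians was higher whichever sample was left out. It was 0.15 without 3d replicate 1 or 3d replicate 2, and 0.20 without 3d replicate 3. Without 30d replicates 1, 2 and 3 in turn it was 0.21, 0.24 and 0.20. All 26 lay above the filter's level at both ages on average, so none entered the test through a single age. Under library size alone the share of higher calls among all calls moved from 47.2% to 62.0%, and the precursor genes were then called higher in 12 cases and lower in 3.

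**Figure D1:**
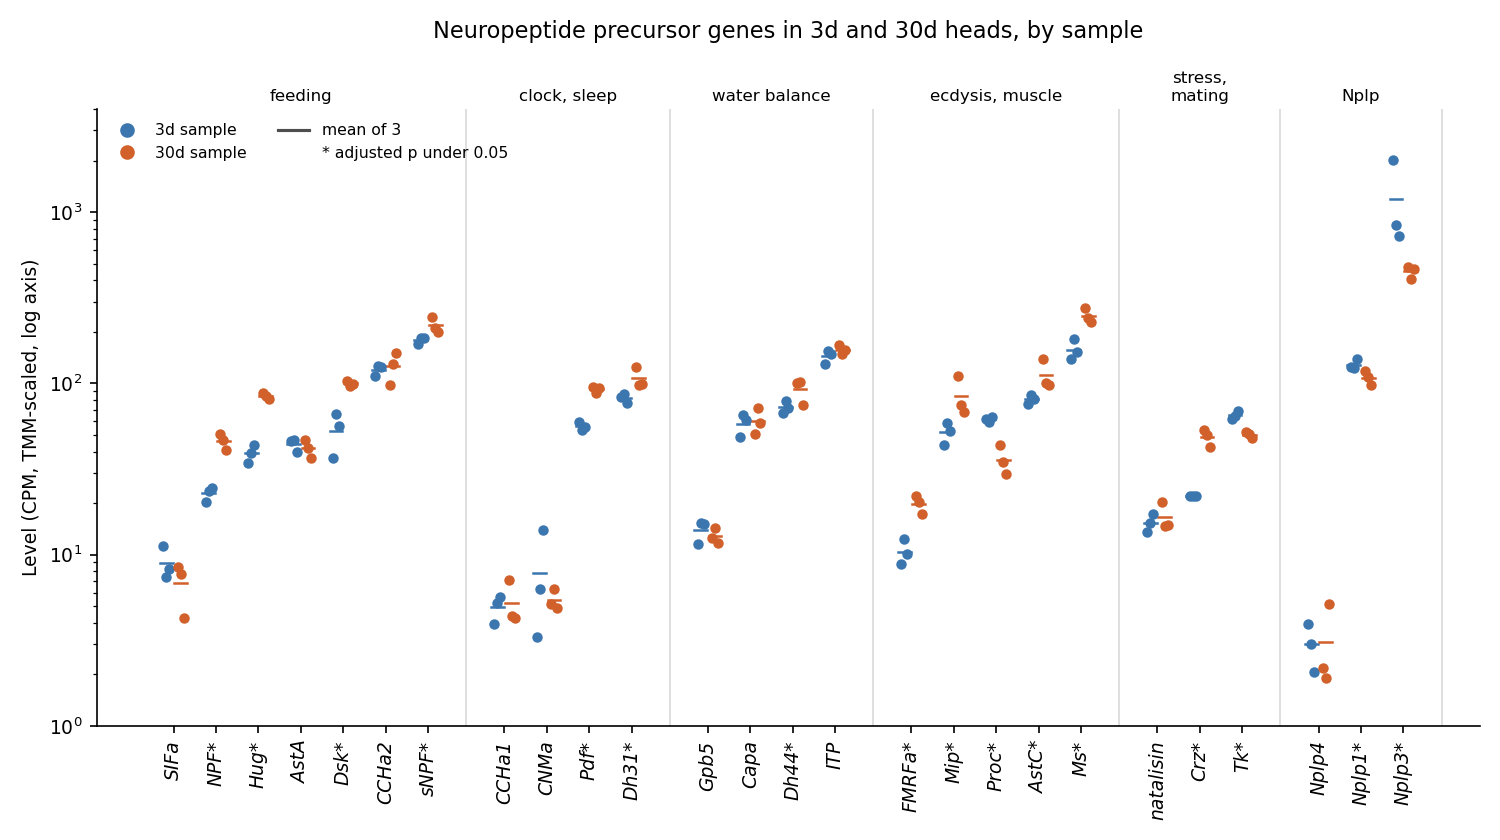
Level of each precursor gene tested in the 6 head samples, in CPM on a log axis and grouped by role. Points are samples, short lines are means of 3, and an asterisk marks an adjusted p-value under 0.05. The 3d and 30d samples of *Crz*, *Hug*, *NPF* and *Pdf* form separate clusters, and *Nplp3* lies far above the other genes with 1 high sample at 3d.

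Among the peptides of feeding and metabolism, 4 of the 7 genes tested rose and none fell, also at an unadjusted p-value under 0.05 in edgeR, DESeq2 or limma-voom. *Hug* (FBgn0028374, chromosome 3R of dm6, 12526188 to 12529076, plus strand) encodes hugin, a pyrokinin of the subesophageal zone known for restraining feeding. It stood at 34.5, 39.1 and 43.6 CPM in the 3d heads and at 87.7, 84.5 and 81.3 CPM in the 30d heads. The lowest 30d sample was thus far above the highest 3d sample, with a fold change of 2.16 (log2 fold change 1.11 ± 0.10 SE, edgeR adjusted p = 1.75e-05). *NPF* (FBgn0027109, 3R, 16609220 to 16611325, plus strand) encodes neuropeptide F, the fly relative of vertebrate neuropeptide Y, which promotes feeding and acts in reward. Its level rose from 20.4, 23.5 and 24.6 CPM at 3d to 50.4, 46.5 and 40.9 CPM at 30d. The spread within each age was small beside this change (log2 fold change 1.01 ± 0.12 SE, edgeR adjusted p = 9.53e-05).

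*Dsk* encodes drosulfakinin, a cholecystokinin-like satiety peptide that is made in part by the insulin-producing cells. Its 3d samples were uneven, at 36.8, 66.1 and 56.3 CPM, whereas the 30d samples lay close together at 103.8, 96.8 and 99.8 CPM. Every 30d sample was above the 3d range (log2 fold change 0.91 ± 0.15 SE, edgeR adjusted p = 0.000777). *sNPF*, short neuropeptide F, is a broadly expressed peptide that also promotes feeding. It was measured at 169, 185 and 183 CPM at 3d and at 244, 210.05 and 199.99 CPM at 30d, with 30d replicate 1 standing above the rest. Its rise of 0.28 on the log2 scale (SE 0.09, edgeR adjusted p = 0.0280) was small, and it lost the call without 3d replicate 1, 3d replicate 3, 30d replicate 1 or 30d replicate 2, at log2 fold changes from 0.20 to 0.31. The other 3 genes tested did not pass. *AstA*, allatostatin A, and *CCHa2*, a nutrient-dependent peptide of fat body and gut, had log2 fold changes of -0.08 (SE 0.11) and 0.07 (SE 0.13). *SIFa*, made by a few large neurons of the brain's pars intercerebralis, had one of -0.37 (SE 0.27). Exons of *Start1* overlap 21.1% of the exon bases of *SIFa*. Reads lying wholly in the overlap were not counted if the authors' annotation held both genes.

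Among the peptides of clock output and sleep, 2 of the 4 genes tested rose. *Pdf* (FBgn0023178, 3R, 26455462 to 26456141, minus strand) encodes pigment-dispersing factor, the main peptide by which the lateral clock neurons synchronize the circadian network. It was measured at 59.5, 53.3 and 56.0 CPM in the 3d heads and at 95.3, 87.8 and 94.4 CPM in the 30d heads. Both ages were tight and well apart (log2 fold change 0.72 ± 0.09 SE, edgeR adjusted p = 0.000113). *Dh31*, a calcitonin-like diuretic hormone that is also expressed in dorsal clock neurons, stood at 82.8, 87.1 and 76.5 CPM at 3d and at 125, 98.2 and 98.7 CPM at 30d. Again 30d replicate 1 was the highest. The rise was 0.39 on the log2 scale (SE 0.10, edgeR adjusted p = 0.0141), and the call was lost without 3d replicate 3, at 0.34, and without 30d replicate 1, at 0.26. *CCHa1* and *CNMa*, both known from clock neurons and gut, were not called, with log2 fold changes of 0.09 (SE 0.29) and -0.54 (SE 0.40). *CNMa* was at 3.29, 6.28 and 13.9 CPM at 3d, so that its 3d samples spanned all its 30d samples.

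Among the peptides of water and ion balance, 1 of the 4 genes tested rose. *Dh44*, a diuretic hormone related to vertebrate corticotropin-releasing factor, was at 67.0, 79.2 and 71.4 CPM at 3d and at 100.2, 101.7 and 75.2 CPM at 30d. It was the single called gene whose ages overlapped, since 30d replicate 3 lay within the 3d range (log2 fold change 0.35 ± 0.12 SE, edgeR adjusted p = 0.0402). This call was lost without 3d replicate 1 (0.30), 3d replicate 3 (0.33), 30d replicate 1 (0.29) or 30d replicate 2 (0.27). *ITP*, the ion transport peptide that acts as an antidiuretic hormone, *Capa*, the precursor of capability peptides that act on the renal tubules, and *Gpb5*, a subunit of a glycoprotein hormone, had log2 fold changes of 0.12, 0.04 and -0.13 with standard errors of 0.09, 0.14 and 0.17, and were not called. Their ages overlapped.

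Of the peptides known for ecdysis and the control of muscle, heart and gut, all 5 genes tested were called, 4 higher and 1 lower. *Ms* encodes myosuppressin, which inhibits contraction of visceral muscle and heart. In the 3d heads it was measured at 138, 182 and 152 CPM, and in the 30d heads at 275, 242 and 228 CPM. The ages were separate, and the log2 fold change was 0.66 (SE 0.11, edgeR adjusted p = 0.000636). *FMRFa*, the precursor of several RFamide peptides that enhance muscle contraction, was a low gene at 8.87, 12.3 and 10.1 CPM at 3d and rose to 22.1, 20.2 and 17.2 CPM at 30d. No 30d sample reached down to the 3d range (log2 fold change 0.92 ± 0.17 SE, edgeR adjusted p = 0.00167).

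*Mip*, the precursor of the myoinhibitory peptides, which are ligands of the sex peptide receptor, stood at 43.7, 58.4 and 53.0 CPM at 3d and at 111, 75.2 and 68.1 CPM at 30d. *AstC*, allatostatin C, stood at 75.6, 85.8 and 81.2 CPM at 3d and at 139, 101 and 97.6 CPM at 30d. In both genes 30d replicate 1 was well above the other 30d samples, which were themselves above the 3d range. The log2 fold changes of 0.71 for *Mip* (SE 0.17) and 0.48 for *AstC* (SE 0.12) became 0.47 and 0.30 without that sample, and both stayed called (adjusted p = 0.0134 and 0.0328 in edgeR's quasi-likelihood test). *Proc* (FBgn0045038, 2L, 7864642 to 7871432, minus strand), the precursor of proctolin, a stimulator of muscle contraction in insects, moved the other way. It fell from 61.8, 59.5 and 63.7 CPM in the 3d heads to 43.6, 34.7 and 29.5 CPM in the 30d heads. The 3d samples were within a few CPM of each other and all above the 30d samples (log2 fold change -0.78 ± 0.13 SE, edgeR adjusted p = 0.000709).

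The peptides known for stress responses and mating divided. *Crz* (FBgn0013767, 3R, 14314854 to 14315716, plus strand) encodes corazonin, a stress hormone related to vertebrate gonadotropin-releasing hormone that is made by a small cluster of neurosecretory cells in the brain. It had the highest fold change of all precursor genes, from 22.01, 22.12 and 21.93 CPM at 3d to 53.7, 49.8 and 42.3 CPM at 30d. The 3d samples were nearly equal, and each 30d sample was far above them (log2 fold change 1.14, a 2.21-fold rise, SE 0.12, edgeR adjusted p = 4.27e-05). *Tk*, the precursor of the tachykinins, peptides of brain and gut that act in aggression, olfaction and metabolism, fell from 62.1, 64.5 and 69.3 CPM at 3d to 51.8, 50.6 and 48.1 CPM at 30d. The change was modest but larger than the spread (log2 fold change -0.38 ± 0.09 SE, edgeR adjusted p = 0.00883). *natalisin*, a tachykinin-related peptide known for its part in mating, had a log2 fold change of 0.11 (SE 0.17) and was not called. An antisense RNA overlaps 5.75% of its exon bases, and the counting did not use strand.

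Of the neuropeptide-like precursors, genes named from peptides found in extracts of the nervous system, 2 of the 3 tested fell. *Nplp3* (FBgn0042201, 3L, 16318024 to 16318690, plus strand) was the most abundant of all precursor genes per length, at 2222 CPM per kilobase of exon at 3d and 840 at 30d. Its samples stood at 2018, 841 and 727 CPM at 3d and at 480, 409 and 467 CPM at 30d. A single sample, 3d replicate 1, was thus more than double any other, although both remaining 3d samples were also above every 30d sample. The log2 fold change was -1.40 (SE 0.28, edgeR adjusted p = 0.00261). Without 3d replicate 1 it was -0.80, still called (edgeR adjusted p = 8.80e-05). The same sample had the highest summed level of the 10 muscle markers, 4504 CPM against 2992 and 2984 in the other 3d samples and 1715 to 1800 at 30d. This was not particular to muscle, since 3d replicate 1 was also the highest of all samples for the pan-neuronal and glial markers. Their sums were 13325 and 4432 CPM in that sample, 11022 and 3883 in 3d replicate 2, and 11902.5 and 3748 in 3d replicate 3. For the photoreceptor and fat body markers 3d replicate 1 was the lowest of all samples, at 35546 and 4994 CPM. The part of RNA from muscle or from any other cell type in the level of *Nplp3* was not tested. *Nplp1*, whose peptides are made in several groups of brain neurons, fell from 124, 123 and 139 CPM to 117, 109 and 97.6 CPM, a fall of 0.26 on the log2 scale (SE 0.09, edgeR adjusted p = 0.0455). The ages did not overlap but were close, and the call was kept without 30d replicate 1 alone among the samples left out, with log2 fold changes from -0.32 to -0.19. It was also lost with scaling by library size alone, at -0.18. *Nplp4*, at a few CPM, had a log2 fold change of 0.03 (SE 0.43).

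Levels of different genes can be set side by side only per length of exon. On this scale *Ms* followed *Nplp3*, at 133 CPM per kilobase at 3d and 211 at 30d, and *Dsk* came next at both ages, at 93.3 and 176. Behind them at 3d were *Capa*, *Pdf* and *CCHa2*, between 82.4 and 83.8 CPM per kilobase. By 30d *Pdf* stood at 136, while *Capa* and *CCHa2* were at 86.5 and 86.6. *CNMa*, *Nplp4*, *CCHa1*, *FMRFa* and *natalisin* were the lowest genes tested at 3d, between 4.12 and 7.66 CPM per kilobase. These lengths merge the exons of all annotated isoforms, so they understate a gene whose long isoforms are rare in the head. Without *Nplp3*, the precursor genes together made up 1394, 1591 and 1544 CPM of the 3d samples and 2043, 1853 and 1769 CPM of the 30d samples. The ages did not overlap in this sum, whereas with *Nplp3* it was 3413, 2431 and 2271 CPM at 3d and 2522, 2262 and 2236 CPM at 30d, and they did. *Nplp3*, the precursor gene with the largest fall, was left out with its values in view. Of single genes tested, 44.8% had no overlap in either direction, and no such share was made for sums.

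The other 5 precursor genes found had too few counts for the test. *Akh*, the adipokinetic hormone of the corpora cardiaca that mobilizes fuel stores, had 0 counts in each 3d sample and 0, 2 and 1 counts at 30d, and a count of 0 allows up to 3 counts, or 0.817 to 0.985 CPM by library. *Lk*, leucokinin, had 1 or 2 counts in every sample, but in the annotation used here an antisense RNA covers 93.0% of its exon bases, and without strand reads within it cannot be assigned to the gene. *AstCC*, a paralog of *AstC*, had at most 3 counts. *CCAP*, crustacean cardioactive peptide, had 4, 10 and 6 counts at 3d and 11, 9 and 1 at 30d. *amn*, amnesiac, known for memory and sleep, had 11, 8 and 8 counts at 3d and 5, 6 and 4 at 30d. In a fit without the filter none of the 5 was called, with edgeR adjusted p-values from 0.197 to 0.979, and at these counts differences between the ages were not detectable.

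None of the receptors of these peptides rose with them. Of 32 receptor genes, 28 had enough counts, and none rose while 7 fell, or 25.0% called against the 30.4% of all genes tested. With library size alone 6 fell and none rose, and at an unadjusted p-value under 0.05 in edgeR, DESeq2 or limma-voom the number that rose was also 0. Their median log2 fold change was -0.31. The genes that fell were *FMRFaR* (-0.81), *CCKLR-17D3* (-0.66), *Pdfr* (-0.57), *AstC-R2* (-0.57), *sNPF-R* (-0.41), *Proc-R* (-0.41) and *CNMaR* (-0.38). *CNMaR* lost its call with library size alone, at -0.30 (edgeR adjusted p = 0.112). *Pdfr*, the receptor of PDF, was measured at 73.3, 74.8 and 73.5 CPM in the 3d heads and at 50.4, 50.3 and 48.4 CPM in the 30d heads. Both ages were again tight and well apart, with the 30d samples on the lower side (SE 0.09, edgeR adjusted p = 0.000481). *FMRFaR* stood at 12.8, 13.1 and 10.7 CPM at 3d and at 8.17, 6.56 and 6.01 CPM at 30d (edgeR adjusted p = 0.00816), while its ligand *FMRFa* rose. The number of receptors called depended on single samples, with 4 without 3d replicate 2, 3 without 3d replicate 3 and 2 without 30d replicate 3, and it was 1 with DESeq2's Wald test.

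In 16 pairs of a peptide that rose and a receptor tested, the receptor was called lower in 5 and higher in none, and had a negative fitted value in 13. These counts are to be read against the 16.1% of all genes tested and the 7 of 28 receptors that were called lower, and against the 20 of 28 receptors with a negative fitted value whatever their ligand did. Besides *Pdf* and *FMRFa*, the peptides with a called receptor were *Dsk*, *AstC* and *sNPF*, of which *sNPF-R* was not called with the length trend described below removed (log2 fold change -0.31, edgeR adjusted p = 0.0644). The receptor of corazonin, *CrzR*, had a log2 fold change of -0.01 (SE 0.12) beside the 1.14 of *Crz*, and *SPR*, on which the myoinhibitory peptides act, one of 0.07 (SE 0.13). Exons of *frma* overlap 26.8% of the exon bases of *SPR*. Reads lying wholly in the overlap were not counted if the authors' annotation held both genes. *NPFR* was at -0.50 (SE 0.20, edgeR adjusted p = 0.0799) and did not pass. For proctolin both sides fell, *Proc* by 0.78 and *Proc-R* by 0.41 on the log2 scale. Each gene was tested against 0 and the difference between ligand and receptor was not tested. Of the 32 receptors, 4 had too few counts and were not tested, among them *CapaR* and *CCAP-R*.

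**Figure D2:**
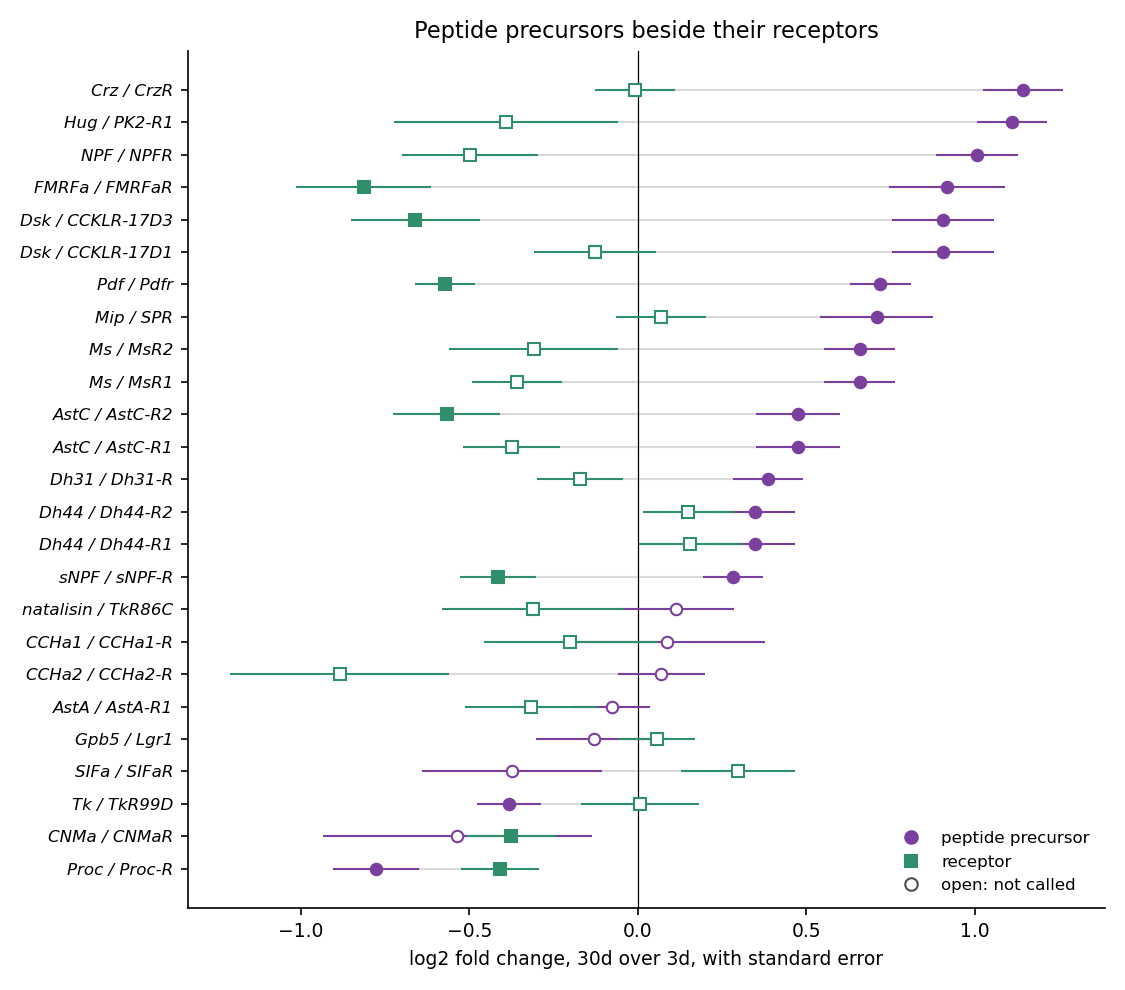
Log2 fold change of 30d over 3d with its standard error for 25 pairs of a peptide precursor (circles) and a receptor (squares) that were both tested. Filled symbols are called at an adjusted p-value under 0.05. In the pairs of *FMRFa*, *Pdf*, *AstC* and *sNPF*, and in *Dsk* with *CCKLR-17D3*, the filled circle lies to the right of 0 and the filled square to the left.

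Of the 14 processing and dense-core vesicle genes, 13 were tested, of which 1 rose and 3 fell. Their called share of 30.8% was close to the 30.4% of all genes tested, with a median of -0.05, which turned to 0.03 with scaling by library size alone. *amon*, the prohormone convertase that makes the cuts, was at 323, 324 and 362 CPM at 3d and at 355, 327 and 293 CPM at 30d, overlapping and not called (log2 fold change -0.05 ± 0.09 SE). *svr*, a carboxypeptidase, *Phm*, the amidating monooxygenase, and *Pal2*, the lyase that completes amidation, had log2 fold changes of -0.05, 0.03 and -0.04 with standard errors of 0.07, 0.08 and 0.07. Exons of *CG30183* overlap 25.7% of the exon bases of *Pal2*. Reads lying wholly in the overlap were not counted if the authors' annotation held both genes. *7B2*, a helper of the convertase, fell by 0.31 on the log2 scale (SE 0.09, edgeR adjusted p = 0.0199). With scaling by library size alone *7B2* was at -0.23 and not called (edgeR adjusted p = 0.0818). Of the genes for vesicle release, *Cadps*, which primes dense-core vesicles, fell by 0.53 and *Syt7*, a calcium sensor, by 0.43. *IA-2*, a protein of the dense-core vesicle membrane, rose by 0.39 (SE 0.11, edgeR adjusted p = 0.0163), from 2857, 2474 and 2842 CPM to 4050, 3503 and 3141 CPM. The transcription factor gene *dimm*, which sets up the peptidergic state, had between 4 and 13 counts and was not tested.

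**Figure D3:**
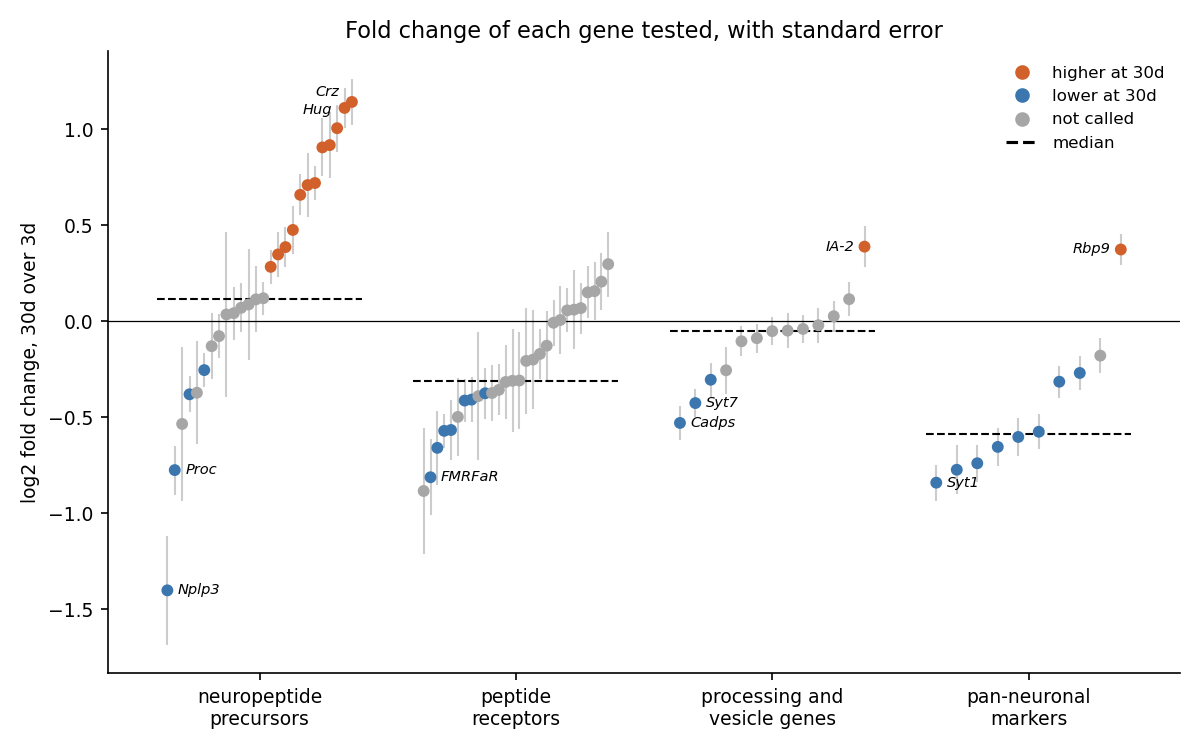
Log2 fold change of 30d over 3d with its standard error for every gene tested among the neuropeptide precursors, the receptors, the processing and vesicle genes and the pan-neuronal markers. Orange points are called higher, blue points lower and gray points not called, and dashed lines are medians, at 0.12, -0.31, -0.05 and -0.59. Orange points are 12 of 26 precursor genes, 0 of 28 receptors, 1 of 13 processing and vesicle genes and 1 of 10 pan-neuronal markers. Of all genes tested, 14.4% were called higher. The lists also differ in exon length, and shorter genes were called higher more often.

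General neuronal markers mostly fell. Of 10 pan-neuronal markers, 8 fell and 1 rose, with a median log2 fold change of -0.59, and 7 fell and 1 rose with scaling by library size alone. Counts over the marker lists stand against the 30.4% of all genes tested that were called. *Syt1*, the calcium sensor of synaptic vesicles, fell by 0.84, *brp*, a protein of the active zone, by 0.66, and *nSyb* by 0.32. The marker that rose was *Rbp9* (log2 fold change 0.37 ± 0.08 SE, edgeR adjusted p = 0.0037). *elav*, the classic neuronal RNA-binding protein, had a log2 fold change of -0.18 (SE 0.09) and was not called. Exons of 2 other genes overlap 34.2% of its exon bases. Reads lying wholly in the overlap were not counted if the authors' annotation held these genes. The summed level of the 10 markers ranged from 11022 to 13325 CPM at 3d and from 8399 to 8786 at 30d. Among other cell types, 5 of 8 glial markers fell and 1 rose, or 3 and 1 with library size alone, and of the 8 muscle markers tested 7 fell, with a median of -1.08. Of the flight muscle genes in this list, *Act88F* fell (log2 fold change -1.45 ± 0.38 SE, edgeR adjusted p = 0.0114) from at most 38 counts, *TpnC4* had at most 3 counts in any sample, and *fln* at most 13, with an antisense RNA over 61.6% of its exon bases. Of the 10 photoreceptor markers 3 rose and 3 fell, of 5 fat body markers tested 1 rose, and of 4 hemocyte markers 2 rose and 1 fell. Their part in the levels of the precursor genes was not tested. Midgut markers, of interest since *Tk*, *NPF* and *Dh31* are also made in the gut, together reached 20.04 to 37.4 CPM at 3d and 9.03 to 24.3 CPM at 30d, and of the 4 of 8 that were tested 1 fell, *alphaTry* (log2 fold change -2.04 ± 0.65 SE, edgeR adjusted p = 0.0294). The counts of *alphaTry* ranged from 0 to 42 between samples, and those of *mex1* from 0 to 1. The 30d mean of *alphaTry*, 1.70 CPM, was below the filter's level, so this gene entered the test through its 3d samples. Its ages overlapped, and its call is not taken as a result.

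The precursor genes are short, and shorter genes tended to be higher at 30d in these libraries. The median exon length was 1248.5 bp for the 26 precursor genes tested and 2248 bp for all genes tested, and 18 of the 26 were under 1500 bp. Among all genes tested, 23.1% of those under 700 bp were called higher and 10.3% lower, and 17.7% and 8.33% of those between 1000 and 1500 bp, while for genes of 4000 bp or more the shares were 7.70% and 28.9%. Of the 8 precursor genes under 700 bp, 4 were called higher and 1 lower, and of the 8 between 1000 and 1500 bp, 6 were called higher and none lower. The other 10 held 2 genes between 700 and 1000 bp with no call, 6 between 1500 and 2500 bp with 2 higher and 2 lower, 1 between 2500 and 4000 bp that was lower, and 1 longer gene with no call. With the trend of each sample against length removed, an alternative chosen after seeing the data, 11 precursor genes were called higher and 4 lower. *Crz*, *Hug*, *NPF* and *Pdf* then had log2 fold changes of 1.06, 1.02, 0.93 and 0.64. *Dh44* was the gene that lost its call, at 0.32 (edgeR adjusted p = 0.0563). The pan-neuronal markers, with a median exon length of 9384.5 bp, went from a median of -0.59 to one of -0.37, with 7 lower and 1 higher. The receptors, with a median exon length of 3218 bp, went from -0.31 to -0.27, with 6 lower and none higher.

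**Figure D4:**
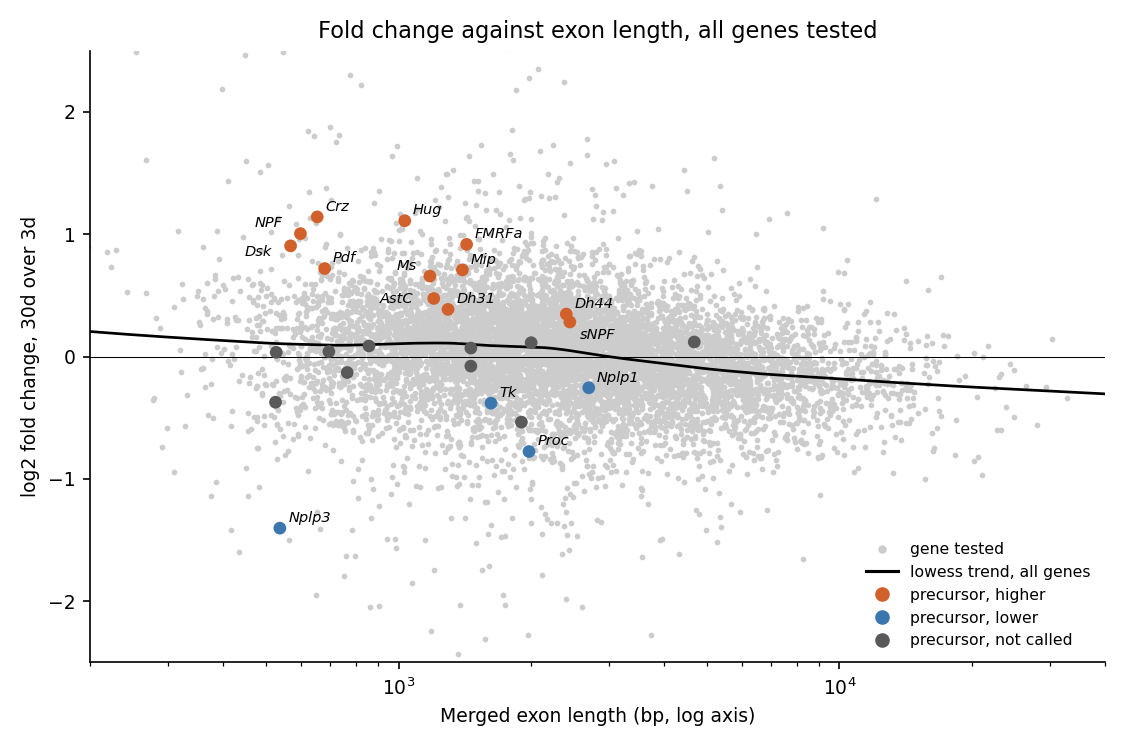
Log2 fold change of 30d over 3d against merged exon length, in bp on a log axis, for the 8699 genes tested that have a length (small gray points), with their lowess trend (line) and the 26 precursor genes as larger points. The axes leave out 37 genes with larger fold changes and 7 of other lengths. The 12 precursor genes that rose lie above the trend line at their length.

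Within an age, many precursor genes had the same sample highest or lowest. Among the 30d samples, replicate 1 had the highest level of 20 of the 26 genes tested and replicate 3 the lowest of 17. Among the 3d samples, replicate 1 had the lowest level of 17 and replicate 2 the highest of 14. The same counts over all genes tested were not made, so whether this order is particular to the precursor genes was not tested. Leaving out 30d replicate 1 left 9 precursor genes called higher and 4 lower, and leaving out 3d replicate 1 left 10 higher and 3 lower. Over the 6 fits with a sample left out, the count of called precursor genes ranged from 12 to 15. *Dsk*, *Hug*, *NPF*, *Pdf*, *AstC*, *FMRFa*, *Mip*, *Ms*, *Crz*, *Proc*, *Tk* and *Nplp3* stayed called in all 15 alternatives, and all 16 called genes kept their direction in all of them.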

How the data were processed

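RNA from the heads of 3 samples at 3d and 3 at 30d was sequenced from a single end after poly(A) selection. The authors used STAR for alignment to dm6 and HTSeq, in its strict intersection mode and without strand, to count reads per gene, and deposited these raw counts for 17492 genes. The annotation release is not given in the sources used here. Symbols, positions and merged exon lengths came from Ensembl release 115 of the same assembly, which held 17356 of the identifiers. All 6 samples were grouped by the age in their labels.

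Genes were kept by edgeR's filter by age (minimum count 10), scaled by TMM, and compared with the quasi-likelihood test of edgeR 4.0.16 (R 4.3.3), two-sided, and p-values were adjusted by Benjamini and Hochberg's method across the 8773 genes kept. The standard error was the size of the log2 fold change divided by the square root of F. The residual degrees of freedom were 4 and the common biological coefficient of variation was 0.0857. Replicate pairs of an age had a chi-squared per degree of freedom from 2.29 to 6.21, so no pair agreed within sampling noise. Counts carry no molecular identifiers, and limits from a count of 0 cover counting error only.

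Alternatives were DESeq2's size factors, library size alone, DESeq2 1.42.0 with its Wald test, voom in limma 3.58.1, a filter of a single count (1) or of 10 counts per sample in all 6, a block for replicate number, fits that left out a sample, and a lowess trend with exon length removed with and without the block, the last chosen after seeing the data. Tests were checked on simulated counts.

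The genes named were the 31 precursor genes found, in lists by role, and the 7 called receptors. The called processing and vesicle genes and the called neprilysin were named too. Of the cell type markers only some called genes were named, not in order of fold change. Uncalled receptors, enzymes and markers were given for comparison. The members and lists were chosen with earlier results of these data known. No sequences are shown, since none were among the references used here. Plots were made with matplotlib 3.10.9.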

Additional observations from a re-analysis of the deposited data

How the results depend on the processing

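Of the 240 values that the 16 called precursor genes took under the 15 alternatives, 240 kept the direction and 220 kept the call, and 12 of the 16 genes kept it in all. The losses fell on *sNPF*, *Dh31*, *Dh44* and *Nplp1*. With DESeq2's Wald test 741 of all genes were called higher, 13 precursor genes were called and 1 receptor was. Without one sample each, the median log2 fold change of the precursor genes tested ranged from 0.15 to 0.24. The number called without one sample each ranged from 2 to 7 for the receptors and from 2 to 4 for the processing and vesicle genes, the lowest being without 30d replicate 3 and 3d replicate 2.

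Of the 10 uncalled precursor genes, 7 changed sign under some setting, and the cause was not tested, while *SIFa*, *Gpb5* and *ITP* did not. Library size alone gave 0.00052 for *AstA*. The removed length trend gave -0.0137 for *CCHa2*, -0.0355 for *Capa* and -0.0505 for *Nplp4*, and with the replicate block added -0.0216, -0.0319 and -0.0728, with -0.0086 for *CCHa1*. Limma-voom gave -0.0635 for *Nplp4*. Without one sample each, the log2 fold changes ranged from -0.16 to 0.0033 for *AstA*, -0.0766 to 0.23 for *CCHa2*, -0.19 to 0.21 for *CCHa1*, -0.87 to 0.15 for *CNMa*, -0.10 to 0.16 for *Capa*, -0.0503 to 0.20 for *natalisin* and -0.53 to 0.28 for *Nplp4*.

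Same-numbered samples deviated together with correlations of 0.14, 0.02 and 0.05, and differently numbered samples with correlations from -0.12 to 0.10. The best match of 3d replicate 2 was 30d replicate 3 (0.10). With 3 samples per age, these values cannot tell whether the replicate numbers pair the samples. With the replicate block 2907 genes, 16 precursor genes and 8 receptors were called. *Nplp4* had too few counts for the fit with at least 10 in every sample. GC content was not tested. The standard errors of 0.29 to 0.43 for *CCHa1*, *CNMa* and *Nplp4*, all at a few CPM, cannot exclude changes as large as that of *AstC*.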

Other observations

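The neprilysins are membrane peptidases known for breaking down released peptides. Of the 5 genes listed, 4 were tested and 1 was called, or 25.0% against the 30.4% of all genes tested. This was *Nep3*, which fell by 0.28 on the log2 scale (SE 0.10, edgeR adjusted p = 0.0425), from 116, 104 and 126 CPM at 3d to 105, 93.8 and 85.5 CPM at 30d. These ages overlapped. *Nep1*, *Nep2* and *Nep4* had log2 fold changes of -0.02, 0.02 and -0.06 with standard errors of 0.08, 0.09 and 0.09. With scaling by library size alone *Nep3* was at -0.20 and not called (edgeR adjusted p = 0.143).

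Of the precursor, receptor, processing and neprilysin genes below the filter for low counts, 4 had ages that did not overlap in CPM. They were picked with their values in view, and 44.8% of all genes tested had no overlap. That share covers genes that passed the filter, and none was made for genes below it. *CapaR*, the receptor of capability peptides, had 1, 1 and 0 counts at 3d and 3, 4 and 5 at 30d. *Nep5* had 2, 3 and 4 counts at 3d and 14, 5 and 5 at 30d. *CCAP-R*, the receptor of CCAP, was at 2.96, 3.00 and 2.67 CPM at 3d and at 1.91, 1.37 and 2.57 CPM at 30d. *amn* was also lower at 30d, with the counts given above. For any gene without overlap, an exact two-sided permutation test of 3 samples against 3 must give p = 0.1, its smallest value. This p-value was therefore fixed by the way the 4 genes were picked and adds nothing to their counts.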
